A study of Mus musculus with 6 samples.

Results

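The 10 genes described here are S100 genes other than the neutrophil pair S100a8 and S100a9. They were chosen by name: S100a1, S100a4, S100a6, S100a10, S100a11, S100a13, S100a14 and S100a16 as members found in epithelia, S100a5 as the member of olfactory neurons, and S100b as the member of glia. Of the 10, 9 had a probe set of their own on the array, 14 probe sets in all among 45037, and all 14 passed the filter on low intensities. The remaining member, S100a11, is covered by 1 probe set that the platform annotation also gives to a pair of pseudogenes, S100a11-ps and Gm12854, so that probe set is described apart and enters no count of the members.

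Cells came from the olfactory epithelium of CD1 mice, an outbred stock, and were sorted with a fluorescent antibody to ICAM1 (CD54), a surface adhesion protein found on horizontal basal cells, the reserve stem cells of this epithelium, and also on endothelial and immune cells. The 2 groups are the ICAM1-positive and the ICAM1-negative sort, with no transgene, deletion or treatment named for either. Each of 3 litters, at postnatal days 21, 22 and 24, gave 1 array per sort, so a sample pools animals of a litter, and age goes with litter. Both sorts are mixtures of cell types, and in such bulk samples fewer cells of a type and less RNA per cell cannot be told apart.

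S100 proteins are small calcium-binding proteins built from paired EF-hands, helix-loop-helix folds whose loop holds a calcium ion. They act mostly as dimers: calcium exposes a surface that grips a partner such as an annexin, a myosin or a growth factor, and some are released from cells. Most of the genes lie side by side in a cluster, yet each is used by its own set of cell types. In the olfactory epithelium S100a5 is known as a gene of mature sensory neurons whose level follows their activity, and S100b marks the ensheathing glia around their axons.

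Values are scaled linear intensities in arbitrary units, 1 per probe set and array, with array medians between 87.9 and 102.8. Differences are given as log2 of the ICAM1-positive over the ICAM1-negative sort, with the standard error of the limma fit, and a gene was called at a Benjamini-Hochberg adjusted p under 0.05 over all probe sets kept. An intensity below the array median is treated as low, and a difference against a low side has no exact fold. Icam1, which checks the labels, stood at 13, 16.1 and 33.2 in the ICAM1-negative sorts and at 7246.5, 6817.2 and 6857.1 in the ICAM1-positive sorts, as the sample titles say and against the free-text descriptions, which name the opposite sort. Markers of horizontal basal cells were higher in the positive sort for 6 of 6 genes (median log2 difference 8.27), and those of olfactory sensory neurons were lower for 7 of 7 (median -3.76). Sustentacular cell markers were higher for 2 of the 5 represented and neutrophil markers lower for 2 of 6.

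Of the 9 genes with a probe set of their own, 7 rose in ICAM1-positive cells, 1 fell and 1 did not pass. Those that rose were S100a10, S100a16, S100a14, S100a4, S100a6, S100a1 and S100a13. The neuronal S100a5 fell and the glial S100b did not pass. Over all 16399 genes tested, 20.6% were called higher and 20.8% lower, so calls in general are common between these sorts. The median log2 difference was 2.96 over the 9 genes and -0.06 over all genes. Among the 14 probe sets 10 were called higher and 1 lower, against 16.9% and 18% of all probe sets. For 11 of the 14 the 3 ICAM1-positive arrays all lay above the 3 ICAM1-negative arrays, which held for 23.6% of all probe sets.

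**Figure D1:**
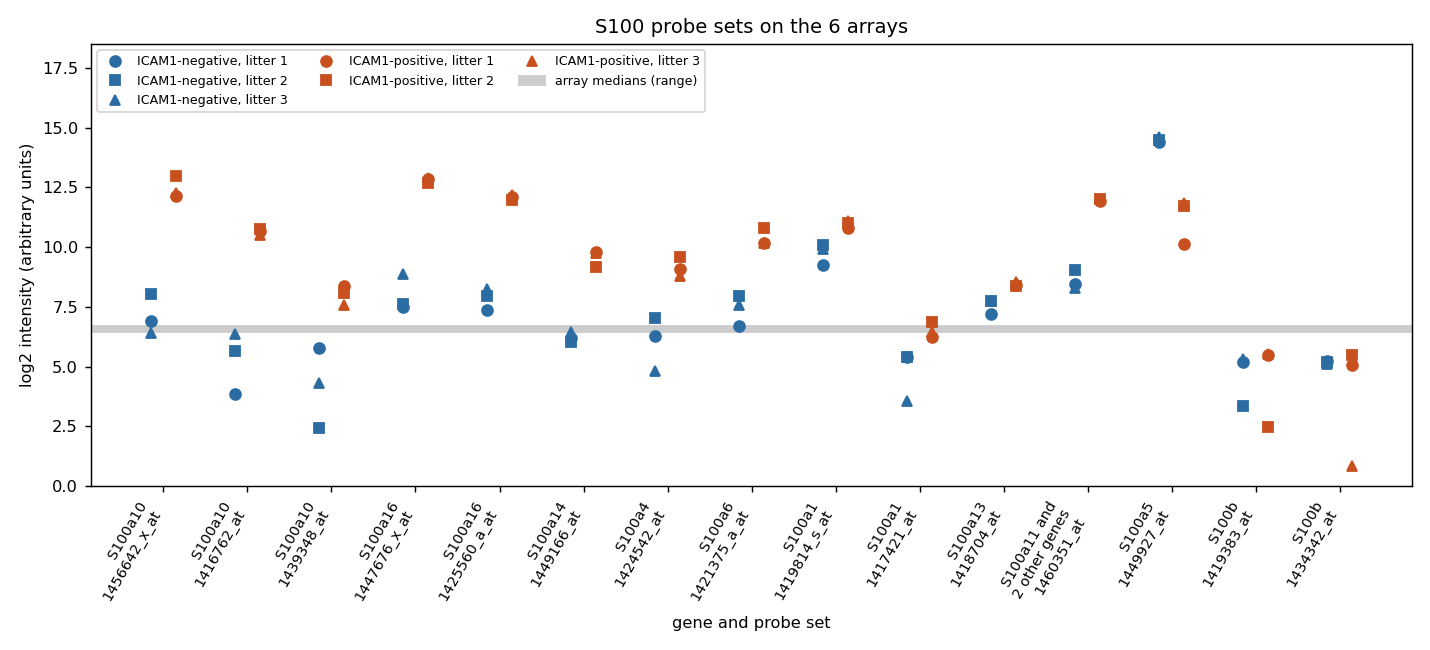
Log2 intensity (arbitrary units) of each S100 probe set on the 6 arrays, with ICAM1-negative arrays in blue, ICAM1-positive arrays in orange, a marker shape per litter and the range of the array medians as a grey band. The sorts do not overlap except for both S100b probe sets, which lie below the band on every array.

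S100a10 had the largest rise of the members. Its protein, also called p11, is the S100 protein that has lost calcium binding in its loops and instead sits constantly on annexin A2 at the plasma membrane. On the probe set that represents the gene it stood at 119.6, 263.5 and 85.8 in the ICAM1-negative sorts and at 4487.4, 8095.6 and 4987.6 in the ICAM1-positive sorts. The log2 difference was 5.34 ± 0.47 (n = 3 arrays per sort, adjusted p = 0.000572), and 0.939% of all genes had a larger one. A second probe set gave 5.35 ± 0.64 (adjusted p = 0.00163) and at least a 16.6-fold difference, because its ICAM1-negative side of 14.4, 51.1 and 83.4 lay below the array median throughout. The third, whose ICAM1-negative side was low as well, gave 3.83 ± 0.83 (adjusted p = 0.0157) and at least 2.67-fold. All 3 probe sets of S100a10 therefore separated the sorts, in every litter, while differing in size.

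S100a16, one of the most widely expressed members of the family, came next. Its 2 probe sets gave 4.80 ± 0.40 (adjusted p = 0.000469) and 4.21 ± 0.26 (adjusted p = 0.000225). On the first it stood at 182.5, 196.8 and 473.7 in the ICAM1-negative and at 7453.4, 6496.4 and 7662.7 in the ICAM1-positive sorts. All of these lay above the array medians, so this difference does not rest on a low side. The first probe set of S100a16, like the first of S100a10, carries the array maker's mark for probes that can also bind similar sequences of other genes, and in both genes another probe set without that mark gave a rise of its own.

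S100a14, S100a4 and S100a6 rose by similar amounts, with log2 differences of 3.34, 3.11 and 2.96 whose standard errors overlap. S100a14, an epithelial member that binds calcium poorly, stood at 73.6, 66.4 and 88.3 in the ICAM1-negative sorts, low on every array, and at 886.5, 578.6 and 875 in the ICAM1-positive sorts. Its log2 difference was 3.34 ± 0.24 (adjusted p = 0.000336), at least 7.93-fold. S100a6, or calcyclin, whose level is tied to cell growth, went from 104.8, 249.3 and 192.3 to 1155.3, 1776.5 and 1160.9, a log2 difference of 2.96 ± 0.38 (adjusted p = 0.00209). Litters differed little for either gene, with log2 differences of 3.12 to 3.59 for S100a14 and 2.59 to 3.46 for S100a6.

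S100a4, known as metastasin, binds non-muscle myosin and is used as a marker of fibroblasts and of migrating and white blood cells. It stood at 77.1, 133 and 28.3 in the ICAM1-negative sorts and at 537.9, 780 and 441.4 in the ICAM1-positive sorts. The sorts did not overlap, and the log2 difference was 3.11 ± 0.59 (adjusted p = 0.0095), or 2.41 once intensities under the array median are set to it. Its call was lost without litter 1 (3.26, adjusted p = 0.0793). Macrophage markers rose in the same arrays, 8 of 8 with a median log2 difference of 4.03. Their summed intensity was 506.6 to 681.2 in the ICAM1-negative and 12251.4 to 15905.6 in the ICAM1-positive sorts, and 6 of the 8 were low on every ICAM1-negative array. Of 5 fibroblast markers 1, Dcn, rose and 4 did not pass, with a median log2 difference of -0.27, and Lum was low on all 6 arrays. Their summed intensity was 1216.6 to 1265.8 in the ICAM1-negative and 2767.9 to 4639.5 in the ICAM1-positive sorts. That sum was mostly Dcn, at 851.9, 720.6 and 1149.2 against 2636, 3316.9 and 4450.8. Of 6 markers of T and NK cells 3 were represented and 0 passed, with Cd3e and Nkg7 low on all 6 arrays and sums of 87.8 to 173.6 and 73 to 125.6. The part of white blood cells or fibroblasts in the rise of S100a4, or of any other member, was not tested.

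Among the called members S100a1 and S100a13 moved least. S100a13, which helps export the growth factor FGF1 from cells, stood at 148.9, 217.9 and 214 against 340.1, 336 and 376.3. The log2 difference was 0.88 ± 0.21 (adjusted p = 0.0235), and 21.7% of all genes had a larger one. S100a1, best known from heart and muscle, gave 1.22 ± 0.27 (adjusted p = 0.0166) on a probe set marked as shared between transcripts of different genes, with 604.2, 1088.9 and 973.5 against 1790.3, 2075.4 and 2178. Its other probe set was low on the 3 ICAM1-negative arrays and on 2 of the 3 ICAM1-positive arrays, and missed the threshold (1.73 ± 0.55, adjusted p = 0.0551). The sorts did not overlap on any of these 3 probe sets. Both calls were lost on leaving out any 1 of the 3 litters, with adjusted p = 0.0732 to 0.133 for S100a13 and 0.06 to 0.11 for S100a1. That of S100a13 was also lost without the ICAM1-negative array of litter 1 or any single ICAM1-positive array (0.0538 to 0.0808). That of S100a1 was lost without the ICAM1-positive array of litter 3 (0.0589).

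The probe set shared by S100a11 and its pseudogenes followed the risers. S100a11 encodes calgizzarin, a partner of annexin A1. The probe set stood at 357.2, 531 and 312.7 in the ICAM1-negative sorts and at 3938.3, 4156.8 and 4154.3 in the ICAM1-positive sorts, a log2 difference of 3.39 ± 0.24 (adjusted p = 0.000316). Which of the annotated genes gave this signal cannot be told from it.

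**Figure D2:**
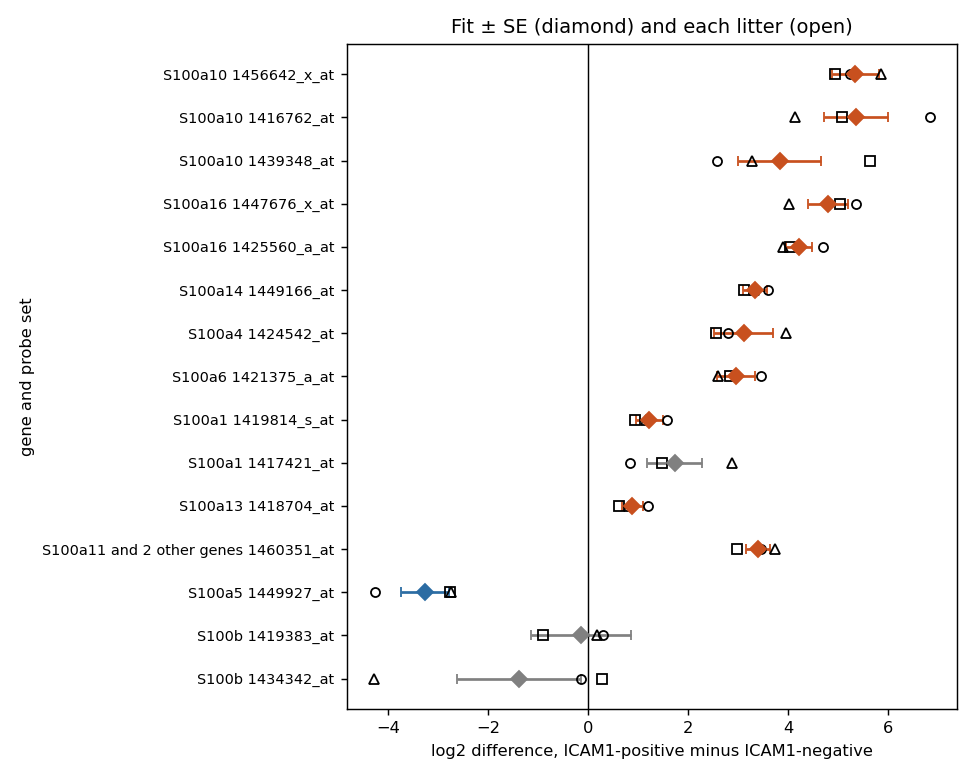
Log2 difference between sorts for each S100 probe set: diamonds with bars are the limma estimate ± SE (orange called higher, blue called lower, grey not called), and open symbols are the 3 litters (circle, litter 1; square, litter 2; triangle, litter 3). S100a10, with probe sets at 5.35 and 5.34, and S100a5 at -3.25 mark the extremes, and litter 1 lies apart from the other 2 for S100a5.

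S100a5, the neuronal member, was the single gene of the 9 that fell. Its intensity was 21546.9, 22723.7 and 24661.3 in the ICAM1-negative sorts, and 1124.8, 3347.1 and 3697.7 in the ICAM1-positive sorts. The log2 difference was -3.25 ± 0.48 (n = 3 arrays per sort, adjusted p = 0.0035), and 3.24% of all genes had a lower one. The sorts did not overlap, and even in the ICAM1-positive sort all 3 arrays stayed above the array median. The difference was -4.26 in litter 1, -2.76 in litter 2 and -2.74 in litter 3.

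In markers of olfactory sensory neurons litter 1 was also the lowest. All 7 had their lowest difference in litter 1, where their median was -4.29, against -3.52 in litter 2 and -3.50 in litter 3. Ciliated cell markers shared this feature: 5 of 5 fell, with a median of -3.12, and all 5 were lowest in litter 1. The summed intensity of these 5 was 6262.1 to 6673.8 in the ICAM1-negative and 482.8 to 738.9 in the ICAM1-positive sorts. Litter 1 was also lowest for 4 of 5 fibroblast markers, 3 of 5 sustentacular markers and 7 of the 18 other EF-hand genes described below. It was lowest for 2 of 8 macrophage and 0 of 6 horizontal basal cell markers. The share of all genes with their lowest difference in litter 1 was not computed. The part of neurons or ciliated cells in the litter pattern of S100a5 was not tested. Stoml3, a stomatin of olfactory cilia, had -3.89, -2.61 and -2.55 by litter. Cnga4 and Cnga2, subunits of the odorant-gated channel, fell by 4.59 ± 0.40 and 3.95 ± 0.33 (adjusted p = 0.000557 and 0.000469). The summed intensity of the 7 neuronal markers was 75107.4 to 88086 in the ICAM1-negative and 4620.7 to 9855.2 in the ICAM1-positive sorts, and 0 of the 7 were low throughout either sort. Of the genes whose centred profile over the 6 arrays lay nearest to that of S100a5, the first was Dnajb3, a heat shock protein cofactor, at a root mean square distance of 0.08 on the log2 scale, followed by Gm16364 at 0.15 and Tmem178 at 0.19. All 3 were below the array median on every ICAM1-positive array. Once intensities under the median are set to it, their differences become -1.05, -1.58 and -2.10 while that of S100a5 stays at -3.25, so the likeness rests on low values.

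S100b, the glial member, was low in both sorts. Its first probe set stood at 36.5, 10.2 and 40.4 in the ICAM1-negative and 44.7, 5.5 and 45.7 in the ICAM1-positive sorts, and the second at 37.5, 37.1 and 34.8 against 34.1, 44.6 and 1.8. All 12 values were below the array medians, and the sorts overlapped on both probe sets. The log2 differences were -0.14 ± 0.99 (adjusted p = 0.93) and -1.38 ± 1.23 (adjusted p = 0.438). Their 95% intervals, -2.58 to 2.30 and -4.39 to 1.63, both include a rise as large as that of S100a1, and the second includes a fall as large as that of S100a5, so equal levels in the sorts are not shown. The difference on the second probe set comes from the ICAM1-positive array of litter 3, since litters 1 and 2 gave -0.14 and 0.27.

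Glial markers beside S100b were mixed. Of 9 ensheathing and Schwann cell markers 7 were represented, and 2 rose, 1 fell and 4 did not pass (median 0.53). The neurotrophin receptor gene Ngfr rose from 62.5, 18.9 and 47.3 to 667.9, 228.7 and 537.7, at least 4.5-fold. Without litter 3 its log2 difference was again 3.51, with the call lost (adjusted p = 0.0649). Erbb3, the neuregulin receptor gene, rose by 0.95 ± 0.21 (adjusted p = 0.0158), a call lost on leaving out any litter (differences of 0.77 to 1.08, adjusted p = 0.0678 to 0.111). Frzb, a Wnt antagonist gene, was called lower with every array low, a call lost once intensities under the median are set to it (adjusted p = 0.996). Sox10, a defining glial gene, stood at 139.1, 58.7 and 131.4 against 82, 56.9 and 21.9 and did not pass (-1.13, adjusted p = 0.197). Which cells gave the glial marker signals was not tested. Summed intensity was 964.1 to 1107.4 in the ICAM1-negative and 1814.1 to 2126 in the ICAM1-positive sorts. Erbb3 gave most of that sum, at 634.8, 506.6 and 760.9 against 1136.5, 1272.4 and 1230.8. The rise of the sum came mainly from Erbb3 and Ngfr.

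**Figure D3:**
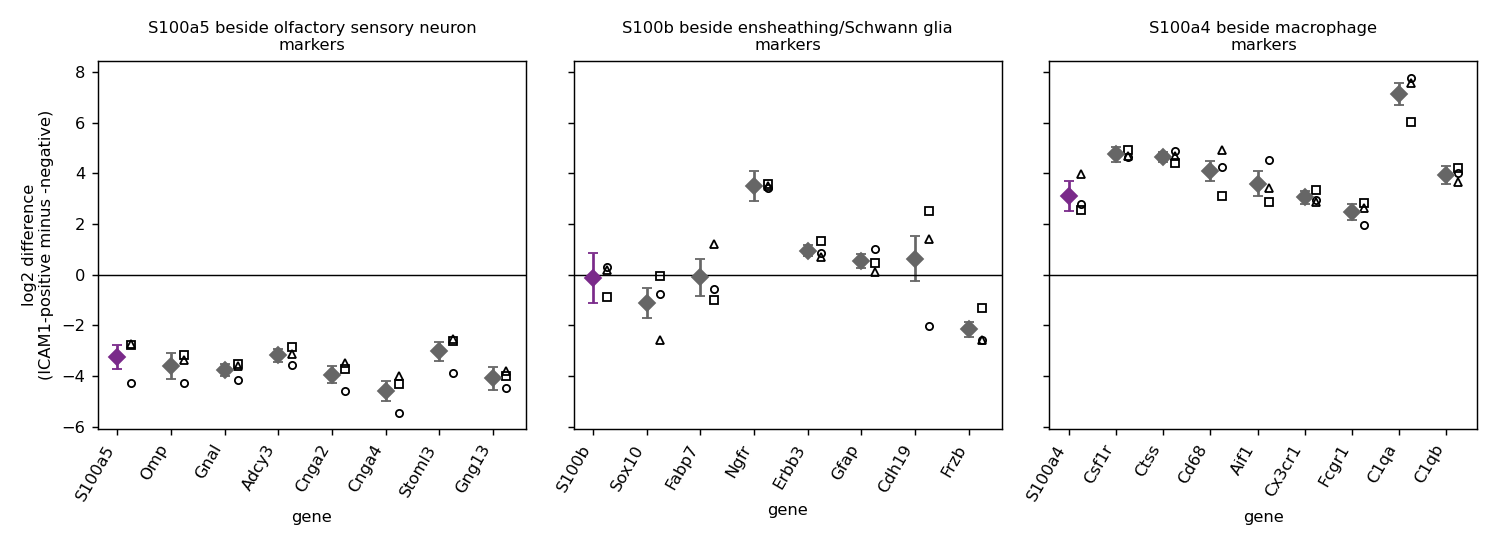
Log2 difference between sorts (diamonds, limma estimate ± SE; open symbols, the 3 litters) for S100a5 beside olfactory neuron markers, S100b beside glial markers and S100a4 beside macrophage markers. S100a5 at -3.25 lies within the range of the neuron markers, S100b at -0.14 has the widest bar of its panel, and S100a4 at 3.11 lies within the range of the macrophage markers.

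Members that moved in opposite directions are neighbours in the genome. Of the 10 members 9 lie on chromosome 3 and S100b lies on chromosome 10, by the RefSeq annotation of GRCm38.p6. In genomic order the cluster runs S100a1, S100a13, S100a14, S100a16, then S100a3 and S100a2, then S100a4, S100a5, S100a6, S100a7a, S100a8 and S100a9, with S100a11 and S100a10 farther along. S100a5, which fell, has S100a4 and S100a6, which both rose, as its adjacent coding genes. S100a3, outside the 10 members, fell as well: 202, 178.5 and 180.6 in the ICAM1-negative against 62.6, 71.2 and 62.5 in the ICAM1-positive sorts (-1.52 ± 0.16, adjusted p = 0.00115), or at least 1.94-fold. S100a1 and S100a13, the called members that moved least, face away from each other, and 104 bases lie in the 250 bases before the start of both.

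**Figure D4:**
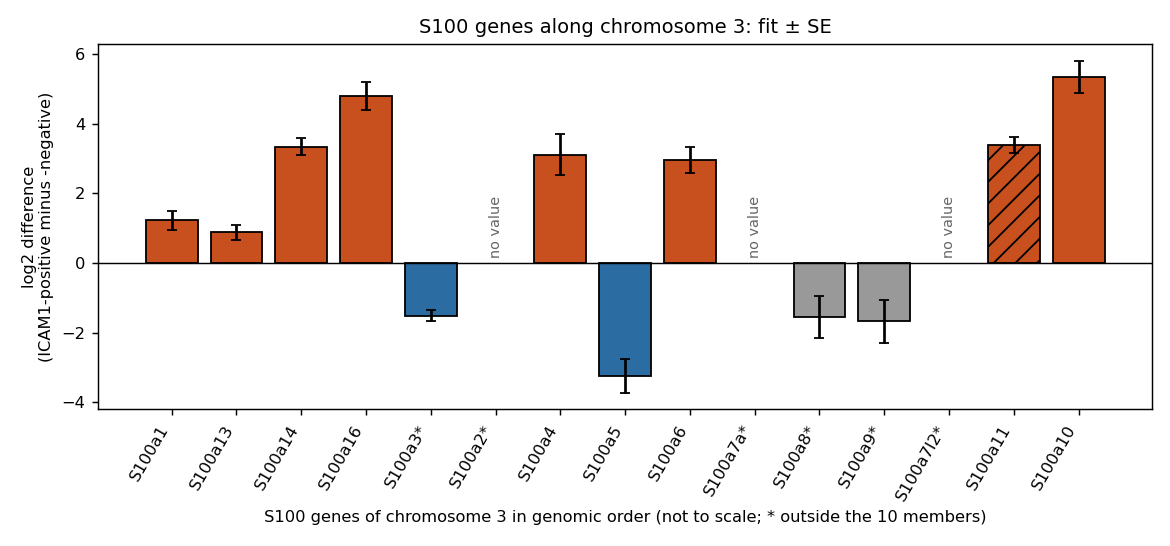
Log2 difference between sorts (bars, limma estimate; whiskers, SE) of the S100 genes of chromosome 3 in genomic order, not to scale, with orange for called higher, blue for called lower and grey for not called; the hatched bar is the probe set that S100a11 shares with pseudogenes, and "no value" marks genes with no probe set kept. S100a5 at -3.25 stands between S100a4 at 3.11 and S100a6 at 2.96.

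The 250 bases before the annotated start of these 3 neighbours are shown because they adjoin genes of opposite direction. The sequences are from RefSeq, GRCm38.p6, written 5′ to 3′ on the gene's strand. Capitals mark TATAAA, the core of the TATA box, a motif chosen after the windows had been read.

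S100a4, chr3:90603520-90603769, plus strand: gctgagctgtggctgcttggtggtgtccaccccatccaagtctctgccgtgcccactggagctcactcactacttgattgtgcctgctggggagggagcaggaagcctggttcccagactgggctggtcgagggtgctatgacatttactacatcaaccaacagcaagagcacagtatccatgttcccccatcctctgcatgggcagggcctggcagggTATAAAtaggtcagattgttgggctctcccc

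S100a5, chr3:90608272-90608521, plus strand: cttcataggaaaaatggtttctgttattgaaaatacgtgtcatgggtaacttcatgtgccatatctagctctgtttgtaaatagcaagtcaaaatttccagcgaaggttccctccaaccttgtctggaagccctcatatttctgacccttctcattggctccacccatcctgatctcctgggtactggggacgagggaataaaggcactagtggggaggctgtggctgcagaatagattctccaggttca

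S100a6, chr3:90612644-90612893, plus strand: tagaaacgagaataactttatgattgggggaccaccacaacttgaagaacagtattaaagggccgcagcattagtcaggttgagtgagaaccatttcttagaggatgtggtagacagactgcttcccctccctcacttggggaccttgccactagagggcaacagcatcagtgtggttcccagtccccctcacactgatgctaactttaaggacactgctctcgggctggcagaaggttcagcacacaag

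TATAAA was found in the S100a4 window, starting 31 bases before the start, and not in those of S100a5 and S100a6, and on either strand 12.4% of all 32851 promoter windows of this length hold it. The S100a5 window lies inside the longer annotated span of that gene. TGANTCA, a loose form of the AP-1 motif in which the middle base may be any, was found in none of the 3 windows. CCCNNGGG, the core of the motif of Ebf factors, which act in olfactory neurons, was in none of them either. Of the 9 windows of the 8 members with an entry, TGANTCA was in 2, 1 of S100a16 and that of S100a11, against 6.75% of all windows. The match of S100a16 reads TGAATCA, without the C or G that the stricter AP-1 motif has in the middle. Both matches of S100a11 read TGAGTCA, which has it. The share over all windows counts any middle base, and the stricter form was not counted. CCCNNGGG was in 2, the other window of S100a16 and that of S100b, against 11.8%. Both motifs were read on both strands, their matches did not overlap, and a match is a description of the letters and not a bound site.

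Genes of proteins that S100 proteins bind were a further list of 15, of which 14 were represented. Of these 9 rose, 2 fell and 3 did not pass, with a median of 1.43, where 20.6% of all genes were called higher and 20.8% lower. Anxa2, whose protein carries S100a10, rose from 665.2, 698.8 and 926.6 to 14667.9, 14849.8 and 14111.3 (4.27 ± 0.19, adjusted p = 0.000148). Ahnak, the giant scaffold of that complex, rose by 7.06 ± 0.33 (adjusted p = 0.000156). For S100a10 and both of these partners the direction was the same in all 3 litters.

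Other partners split. Fgf1, whose export involves S100a13, went from 77.7, 105.4 and 86 to 3579.7, 3590.7 and 3589.6 (5.33 ± 0.18, adjusted p = 0.000124). Syt1, a synaptic vesicle protein named in the same export complex, fell by 3.94 ± 0.35 (adjusted p = 0.000563), in the direction of the neuron markers. The other gene that fell was Cacybp, the calcyclin-binding protein, by 0.75 ± 0.23 (adjusted p = 0.0478), opposite to S100a6. That call is near the threshold and was lost with no filter on low intensities (0.0658) and on leaving out any litter (0.118 to 0.217). It was also lost on leaving out any single array except the ICAM1-negative array of litter 3 (0.0621 to 0.141).

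Myh9, the myosin bound by S100a4, rose by 1.25 ± 0.25 (adjusted p = 0.0119) and Anxa1, the annexin bound by S100a11, by 1.36 ± 0.30 (adjusted p = 0.0159). Both lost their calls on leaving out any litter, with adjusted p = 0.0537 to 0.0863 and 0.0669 to 0.0779. Ager, which encodes RAGE, the receptor for released S100 proteins, was low on all 6 arrays and did not pass. Anxa11, a partner of S100a6, had no probe set kept under its own symbol and was not analysed here.

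Among S100 genes outside the 10, S100a8 and S100a9, which encode the calprotectin of neutrophils, did not pass. S100a8 stood at 2224.6, 4927 and 1378 against 493.8, 1470 and 830.3 (-1.55 ± 0.60, adjusted p = 0.0965). S100a9 gave -1.67 ± 0.62 (adjusted p = 0.0887), and for both genes the sorts overlapped. With litter as a paired block both were lower (adjusted p = 0.0431 and 0.0295), as they were with an intensity trend in the variance (0.0315 and 0.0298). In both sorts litter 2 gave the highest value of either gene. S100pbp, which encodes an S100P-binding protein and is no S100 gene itself, fell by 0.81 ± 0.16 (adjusted p = 0.0105), and on leaving out a litter the difference was -0.88 to -0.77 with the call lost (0.0589 to 0.111). None of the members that rose had a lower value in the ICAM1-positive sort of any litter.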

How the data were processed

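Sorted cells of 3 litters were measured on 6 Affymetrix mouse arrays. RNA was amplified in 2 rounds, per the labels' protocols. The authors deposited linear intensity values, 1 per probe set and array. The submitters' processing notes name GCRMA, but the values were not on a log2 scale, and each array's mean without the 2% highest and 2% lowest values was 500, the form of scaled MAS5-type signals. The program, background correction and detection calls are unstated in the labels.

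From the deposited intensity values, log2 was taken, 64 control probe sets were left out, and probe sets with log2 above 4 on at least 3 arrays were kept, 38694 of 45037. Gene symbols came from the platform table: 34945 probe sets had 1 gene, 932 several and 9160 none listed. The Entrez IDs of all 9 members with their own probe set gave the same symbol in RefSeq. A gene is represented by its kept probe set with the highest mean over the 6 arrays, 16399 genes in all. Sorts were compared with limma 3.58.1 in R 4.3.3 (lmFit, eBayes) without a block, with Benjamini-Hochberg adjustment over the probe sets kept. Errors beside log2 differences are standard errors. Where the dimmer sort was below the array median on all its arrays, that median took its place and the fold is printed as a lower bound, an estimate without error. The fit was tested on simulated data. The number of arrays limits the precision.

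Litter pairs the sorts by the study's design; deviations of same-litter arrays from their group means correlated at 0.13, 0.20 and 0.08. Alternatives were the litter block, low intensities raised, an offset of 16, no filter, a filter at log2 above 6, quantile normalization, an intensity trend, averaged probe sets, and leaving out each litter and each array. Members, lists and tests were chosen with earlier results of these data known. Genes named were all members, Icam1, up to 4 genes with the largest called difference in the lists beside a member, and the 3 nearest profiles of S100a5 and S100b; Cacybp, Anxa1, Myh9, Stoml3, Sox10, Ager, S100a8, S100a9, Dcn and the low markers were added after their values were seen. Genes of the neutrophil, sustentacular and ciliated marker lists are not named, apart from S100a8 and S100a9.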

Additional observations from a re-analysis of the deposited data

How the results depend on the processing

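Of the 152 values that the 9 member genes took under 17 alternatives, 140 kept the side of the threshold and 12 lost the call. Among the called genes 0 values reversed, and 0 values gained a call. The calls lost were of S100a1, S100a13 and S100a4, each on leaving out a litter or an array. S100b, not called in any alternative, changed sign between alternatives, from -0.78 to 0.87. S100a5 ranged from -3.56 to -2.71 with adjusted p = 0.000133 to 0.0383, S100a10 from 4.84 to 5.80, S100a16 from 4.51 to 5.24, S100a14 from 2.99 to 3.54 and S100a6 from 2.61 to 3.23, and all 5 stayed called in every alternative. With litter as a paired block 7 members were higher and 1 lower, as without it; among the other genes refitted it added the calls of S100a8 and S100a9 and changed no other call. Stoml3, Sox10, Ager, Dcn, Lum, Cd3e, Nkg7, Tchhl1 and Rptn were not refitted under the alternatives. Leaving out litters or arrays gave 4 to 7 member genes higher, the lowest without litter 1. Over all probe sets these counts ran from 3764 to 5854 higher and from 3678 to 6013 lower, with fewer samples in each fit. A filter at log2 above 6 removed S100b, which then has no value. Low signal limits S100b, and the size for S100a4, S100a14 and 2 of the S100a10 probe sets. Tchh (0.15, adjusted p = 0.479) and Frzb (adjusted p = 0.996) lost their calls with low values raised.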

Other observations

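Other EF-hand genes, the calcium sensors and buffers of neurons and secretory cells, did not follow the S100 members that rose. Of 22 on the list 18 were represented, and 0 were higher, 10 lower and 8 did not pass, with a median log2 difference of -1.21. Over all genes 20.6% were called higher and 20.8% lower. Calb2, the calretinin gene, stood at 9882.3, 9103.7 and 12302.4 in the ICAM1-negative and 691.5, 737.2 and 1404.5 in the ICAM1-positive sorts, and fell by 3.53 ± 0.32 (adjusted p = 0.000649). The potassium channel-interacting genes Kcnip4 and Kcnip2 were at least 3.86-fold and 2-fold lower, and the call of the second was lost without litter 1 (-2.74, adjusted p = 0.0805) or litter 3 (-2.85, 0.0976). Necab3, which encodes a neuronal calcium-binding protein, was at least 4.58-fold lower. Olfactory neuron markers, 7 of 7, fell in the same arrays, and their part in these values was not tested.

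Genes of the S100-fused type, large proteins of the outer skin that begin with an S100 domain, were at or near background. Of 7 on the list 3 were represented. Tchh, the trichohyalin gene, stood at 2.1, 9.4 and 0.9 in the ICAM1-negative and 84.6, 120.7 and 59.4 in the ICAM1-positive sorts. It was called higher (5.02 ± 0.86, adjusted p = 0.00638), but its call was lost once intensities under the array median were set to it, and without litter 1 (adjusted p = 0.0749). Tchhl1 and Rptn were below the array median on all 6 arrays and did not pass.

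The genes whose centred profile lay nearest to that of S100b were Chtf8 at a root mean square distance of 0.16, then Impg1 and 4930522H14Rik at 0.26 each. Impg1 and 4930522H14Rik, like S100b, were below the array median on all 6 arrays. Chtf8 stood at 1082.9, 315.3 and 1353.3 in the ICAM1-negative and at 1050.9, 162.2 and 1230.5 in the ICAM1-positive sorts, lowest in litter 2 in both.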
